A study of Mus musculus with 9 samples.

Results

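Interferon-stimulated genes are the genes that a cell switches on when it senses interferon, and 41 of them were followed here in mouse brown fat and brown adipocytes with less Setdb1. The members were chosen by gene name, as genes known for induction by interferon, and all 41 were present in every deposited table, out of 29386 gene identifiers over the tables. None of them passed a false discovery rate of 0.05 in Setdb1 AKO brown adipose tissue (BAT) or after Setdb1 siRNA. Measured values were nonetheless higher than in the control for most members in both of these experiments. The median changes were 0.23 and 0.24 on the log2 scale. In BAT that median rested on single libraries. After siRNA it rested on a lone control library, the lowest for 34 of 40 members, against 34.1% of all genes. In the separate siRNA libraries the members' median was 0.27 and 0.13. Brown adipocytes given hydroxytamoxifen had a single library per group. There, 14 of 32 members were higher and 18 lower, against 48.3% of all genes lower. The median of the members was -0.05.

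The product of Setdb1 methylates histone H3 on lysine 9, a mark that keeps retroelements silent. RNA was sequenced in 3 separate experiments with 9 libraries. In BAT, 2 libraries of Setdb1 AKO mice (Setdb1 fl/fl with Adipoq-Cre) were compared with 2 libraries of control mice (Setdb1 fl/fl without the Cre). Primary brown adipocytes of Setdb1 flox/flox; Rosa26Cre-ERT2 origin gave 1 library after 1 μM 4-hydroxytamoxifen (4-OHT) and 1 after its vehicle ETOH. Primary brown adipocytes transfected with siSetdb1 gave 2 libraries, against 1 library of cells given siNC. All BAT mice carry the floxed allele, and Adipoq drives the Cre in adipocytes, so the other cells of the tissue keep Setdb1. No group has the Cre with intact Setdb1, so Cre and deletion cannot be told apart in BAT. In the 4-OHT experiment the drug and the deletion cannot be told apart either. The labels give no age, sex or housing of the mice, leave the prefix TN_CE of the BAT libraries unexplained, and do not say whether both siSetdb1 libraries received the same siRNA or whether libraries of a group came from separate animals or cultures. The p-values therefore measure only the spread between these libraries.

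Type I interferons bind the receptor of Ifnar1 and Ifnar2, whose kinases Jak1 and Tyk2 activate STAT2. With IRF9 it takes part in a complex that binds the interferon-stimulated response element (ISRE), while interferon gamma acts through the GAS element and is a strong inducer of the guanylate-binding proteins and the immunity-related GTPases. The products block viruses and other intracellular microbes, and several, such as Irf7, Stat2 and Irf9, feed back into the response.

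Reads on genes numbered 16576169 and 16057065 in the Setdb1 AKO libraries, against 16940622 and 15979479 in control BAT. They were 30176359 in 4-OHT and 29911734 in ETOH, and 17721078 and 17593799 in siSetdb1, against 18468152 in siNC. Setdb1 itself read 156 and 191 normalised counts in Setdb1 AKO BAT, against 455 and 473 in control BAT (log2 fold change -1.42, SE 0.19; limma, adjusted p = 0.0216). It read 371 and 399 after siSetdb1, against 784 after siNC, and 620 raw counts in 4-OHT, against 1070 in ETOH. These values cover the whole gene and not only the floxed part. Ucp1, the uncoupling protein that defines brown fat, was abundant in every BAT library, with 104610 and 62875 normalised counts in Setdb1 AKO and 107183 and 88048 in control.

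Promoter sequences were read first, because the ISRE is the element these genes are known to share. The members were chosen as genes known for induction by interferon, so a share above that of all genes can follow from the choice. RefSeq promoter windows (GRCm38.p6, 250 bases before to 50 after a start site) were found for 30 of the 41 members. The ISRE core, searched on both strands as GAAA, any 2 bases and GAAA again, was present in a window of 17 of these 30 members (56.7%), against 1079 of 27025 genes with a window (3.99%). Isg15 held 3 matches, 7 members held 2 and 9 held 1. A GAS-like element, searched on both strands as TTCNNNGAA, was present in 7 of 30 members (23.3%), against 9.55% of all genes. A match is a run of letters and not a measured binding site, and neighbouring matches can overlap. Ifit2 had the highest fitted change of the members in BAT and after siRNA. The 6 windows below are shown because Isg15, Ifit1, Bst2 and Gbp2 hold the core, whereas Ifit2 and Irf7 hold none in the window shown. They lie at chr4:156200769-156201068 (Isg15, minus strand), chr19:34640639-34640938 (Ifit1, plus), chr8:71537423-71537722 (Bst2, minus), chr3:142620413-142620712 (Gbp2, plus), chr19:34550444-34550743 (Ifit2, plus, the upstream one of its windows) and chr7:141266375-141266674 (Irf7, minus). Each is written along the strand of its gene, and capitals mark the ISRE core on either strand.
Isg15: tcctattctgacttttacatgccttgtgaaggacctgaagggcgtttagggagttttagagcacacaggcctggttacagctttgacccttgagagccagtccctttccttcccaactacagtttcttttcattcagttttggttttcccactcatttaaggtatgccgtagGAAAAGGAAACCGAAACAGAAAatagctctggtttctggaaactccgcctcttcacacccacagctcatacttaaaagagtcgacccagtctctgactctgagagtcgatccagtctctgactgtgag
Ifit1: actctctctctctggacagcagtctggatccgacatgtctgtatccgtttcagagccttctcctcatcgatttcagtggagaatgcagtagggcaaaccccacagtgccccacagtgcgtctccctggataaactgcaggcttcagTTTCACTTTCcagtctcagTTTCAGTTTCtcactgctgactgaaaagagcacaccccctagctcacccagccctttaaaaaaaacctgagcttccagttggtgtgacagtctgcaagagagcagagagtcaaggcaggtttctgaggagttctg
Bst2: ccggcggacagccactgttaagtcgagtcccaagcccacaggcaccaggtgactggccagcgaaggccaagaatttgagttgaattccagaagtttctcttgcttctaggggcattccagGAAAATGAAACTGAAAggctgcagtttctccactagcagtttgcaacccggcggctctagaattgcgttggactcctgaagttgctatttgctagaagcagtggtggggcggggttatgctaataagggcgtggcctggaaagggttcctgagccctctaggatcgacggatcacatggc
Gbp2: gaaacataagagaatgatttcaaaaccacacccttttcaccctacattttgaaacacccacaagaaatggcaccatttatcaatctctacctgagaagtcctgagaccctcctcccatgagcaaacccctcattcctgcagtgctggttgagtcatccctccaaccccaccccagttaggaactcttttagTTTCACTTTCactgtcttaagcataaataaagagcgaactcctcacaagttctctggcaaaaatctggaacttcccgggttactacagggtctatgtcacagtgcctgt
Ifit2: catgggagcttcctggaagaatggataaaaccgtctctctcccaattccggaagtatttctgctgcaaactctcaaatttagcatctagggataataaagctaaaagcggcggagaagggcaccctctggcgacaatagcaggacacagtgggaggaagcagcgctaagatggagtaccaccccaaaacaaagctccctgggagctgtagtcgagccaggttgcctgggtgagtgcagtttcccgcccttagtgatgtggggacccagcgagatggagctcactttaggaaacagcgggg
Irf7: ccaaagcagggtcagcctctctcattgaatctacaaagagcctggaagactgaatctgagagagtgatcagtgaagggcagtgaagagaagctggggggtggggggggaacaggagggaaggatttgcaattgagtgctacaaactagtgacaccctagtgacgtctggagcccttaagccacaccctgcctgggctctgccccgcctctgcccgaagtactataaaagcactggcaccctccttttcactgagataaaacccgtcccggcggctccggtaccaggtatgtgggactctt
Isg15 carries its matches as 1 overlapping run ahead of the start site, and Bst2 likewise holds a run of overlapping cores. Ifit1 holds its pair of matches as separate elements a few bases apart. Members with the core had median log2 changes of 0.22 in BAT, 0.30 after siSetdb1 and -0.03 in 4-OHT, and the 13 without it had 0.21, 0.16 and -0.04. This is a description of the windows at hand, and no test was made of it.

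Median levels of the members differed more between the siRNA experiment and the others than between groups within an experiment. Those of BAT and the 4-OHT experiment overlapped. In RPKM, reads scaled for gene length and library depth, the median member stood at 2.27 and 3.59 in the Setdb1 AKO libraries and 3.13 and 1.93 in control BAT. It was 1.76 in 4-OHT and 2.10 in ETOH, and 12.9 and 11.7 in siSetdb1, against 9.89 in siNC. The siRNA cells thus had the highest levels with or without loss of Setdb1. Isg15 had 147 RPKM in siNC and 1.95 in ETOH, a ratio of 75.8. The ratio was 62.4 for Ifi44, 43.1 for Ifit3, 40.2 for Irf7 and 21.5 for Bst2, the surface protein that tethers budding virus. Of the 41 members, 39 were higher in siNC than in ETOH, 15 of them by more than 10 times, and the median ratio was 5.57. The exceptions were Ifit2, at 2.05 RPKM in siNC and 2.28 in ETOH, and Ifi207, at 2.07 in siNC and 8.64 in ETOH. Some ratios rest on few reads, as in Gbp4, with 3 in siNC and 2 in ETOH. Ifi44 had 770 reads in siNC and 20 in ETOH, and Ifit3b had 355 in siNC and 10 in ETOH. The experiments were cultured, treated and normalised separately, so transfection, culture and cell preparation cannot be told apart in these ratios.

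**Figure D1:**
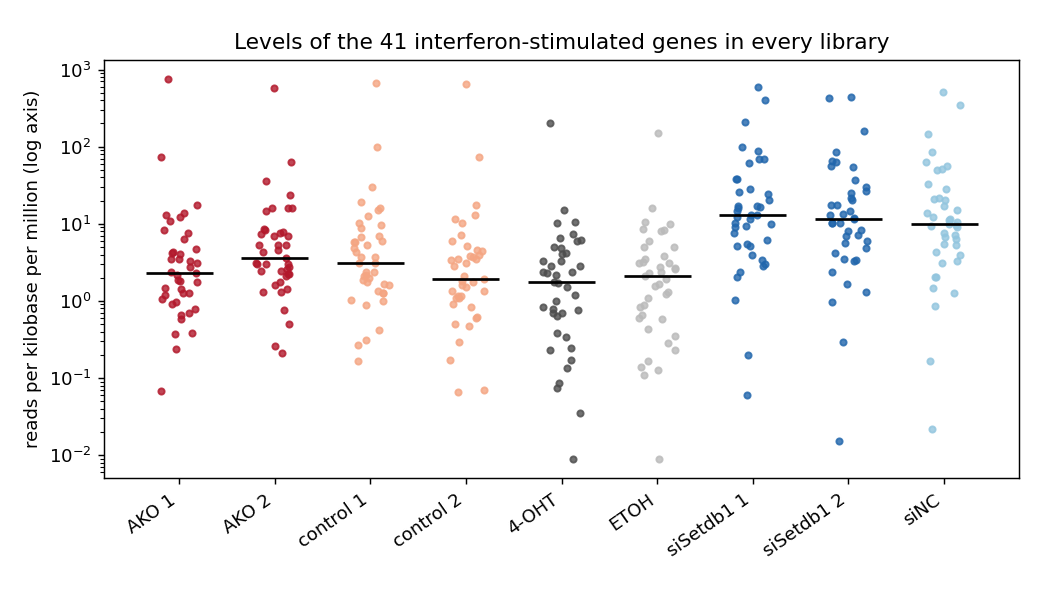
RPKM of the 41 members (points) in each of the 9 libraries on a log axis, with the median member as a bar. The medians of the siRNA libraries lie between 9.89 and 12.9, above those of all BAT, 4-OHT and ETOH libraries.

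Transcripts of the interferons themselves were close to absent. Of 21 interferon genes listed, 6 appeared in any table. Their reads summed to 0 and 0 in Setdb1 AKO BAT, against 1 and 2 in control BAT, where all were from Ifng. They summed to 21 in 4-OHT and 16 in ETOH, from Ifnk, Ifnz and Ifnab. They summed to 2 and 2 in siSetdb1 and 6 in siNC, of which Ifnb1 gave 2 and 2 in siSetdb1 and 4 in siNC. At this depth a difference in interferon transcripts was not detectable. A count of 0 allows up to 3 reads, for counting error only.

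The BAT comparison asked whether interferon-stimulated transcripts of the tissue differ when adipocytes lose Setdb1. Normalised counts, scaled by the authors, were used throughout for BAT and siRNA. All 41 members entered the test, and 0 passed (limma on log2 of the normalised count plus 1, adjusted over 14466 genes), against 243 genes in all (1.68%). At an unadjusted p below 0.05 there were 2 members, both higher in Setdb1 AKO, against 17.7% of all genes in either direction and 8.64% higher. The edgeR quasi-likelihood test passed 0 members, with 2 at an unadjusted p below 0.05, and DESeq2 passed 0, with 3. The fitted change was above 0 for 35 members and below 0 for 6, against 50.6% above 0 among all genes, with a range of -0.24 to 1.04. The median of all genes was 0.01. Of the members, 11 lay more than 1.5-fold higher, against 11.0% of all genes, and 0 lay more than 1.5-fold lower, against 10.8%. In 6 members both Setdb1 AKO libraries lay above both control libraries, against 25.1% of all genes, and in 0 both lay below, against 24.9%. The share of 6 in 41 is thus below that of all genes, although most signs are positive. In bulk tissue, fewer cells of a type and less RNA per cell cannot be told apart.

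Isg15, the ubiquitin-like protein that is attached to other proteins, had the smallest adjusted p. It is encoded on GRCm38 chromosome 4 from 156199424 to 156200818. It read 160 and 200 normalised counts in Setdb1 AKO, against 115 and 87.3 in control (log2 fold change 0.83, SE 0.25; limma, adjusted p = 0.158). Both Setdb1 AKO libraries lay above both controls. Usp18, the protease that removes Isg15, read 102 and 104 in Setdb1 AKO and 133 and 80.2 in control, a log2 fold change of 0.00 within an SE of 0.30. Trim25, a ligase in the same pathway, read 1337 and 1534 in Setdb1 AKO and 1342 and 1197 in control. For both genes the groups overlapped.

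The signalling members had fitted changes close to 0. Irf7, the transcription factor that amplifies interferon production, read 275 and 333 in Setdb1 AKO, against 393 and 211 in control (log2 fold change 0.07, SE 0.30). Irf9 read 306 and 389 in Setdb1 AKO and 449 and 331 in control (-0.16, SE 0.22). Stat2 read 423 and 517 in Setdb1 AKO and 538 and 424 in control (-0.03, SE 0.20). For all 3 genes the groups overlapped, and control 1 held the highest value.

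The IFIT and OAS proteins recognise viral RNA. Their 9 members all had positive fitted changes, with a median of 0.41. Ifit2 read 98.8 and 195 in Setdb1 AKO, against 61.5 and 73.0 in control (log2 fold change 1.04, SE 0.36; limma, adjusted p = 0.193), with no overlap between the groups. The other 8 overlapped, and their fitted changes lay between 0.19 (Oas1a) and 0.79 (Oasl1). Oas1a shares 40.9% of its 100-base stretches with its neighbour Oas1g, and Ifit3 and Ifit3b share 31.7% and 27.4% of theirs with each other, so reads of these genes may be split between copies. Ifi204 shares 10.7% of its stretches, Gbp7 10% and Rtp4 9.28% with other genes, and their values carry the same uncertainty.

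Among 14 other antiviral effectors the median was 0.19, with 12 positive. Mx2 belongs to the dynamin-like GTPases and is annotated in mouse as a polymorphic pseudogene. It read 23.7 and 45.4 in Setdb1 AKO, against 17.4 and 17.2 in control (0.88, SE 0.46; limma, adjusted p = 0.375). Rtp4 read 232 and 291 in Setdb1 AKO and 229 and 130 in control (0.59, SE 0.30), so that its groups were separated by about 2 counts. Xaf1, a pro-apoptotic factor, read 146 and 201 in Setdb1 AKO and 144 and 123 in control. Ifi44 read 39.1 and 51.6 in Setdb1 AKO and 40.4 and 17.2 in control (0.74, SE 0.47), which overlap. Bst2 had the lowest fitted change of all members, with 1124 and 954 in Setdb1 AKO and 1393 and 1073 in control (-0.24, SE 0.18). Ifi27, by far the most abundant member, read 18944 and 14083 in Setdb1 AKO and 15091 and 15372 in control (0.10, SE 0.21).

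The 3 HIN200 members, DNA-binding proteins of the interferon response, had positive changes with a median of 0.47. Ifi204 read 213 and 448 in Setdb1 AKO, against 208 and 178 in control (0.68, SE 0.34; limma, adjusted p = 0.353). Its groups did not overlap, and most of the difference came from Setdb1 AKO 2.

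The guanylate-binding proteins and immunity-related GTPases attack the vacuoles of intracellular microbes. Of these 9 members 8 had positive changes, with a median of 0.28, and all 9 overlapped between the groups. Among all genes, 25.1% lay higher and 24.9% lower without overlap. Ifi47 read 75.1 and 124 in Setdb1 AKO and 81.6 and 46.7 in control (0.63, SE 0.38). Gbp4 read 180 and 220 in Setdb1 AKO and 190 and 110 in control (0.46, SE 0.30). Iigp1 read 445 and 1227 in Setdb1 AKO and 766 and 305 in control, so that each group held a high and a low library.

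This pattern of a high and a low library ran through the whole list. Setdb1 AKO 2 was the highest of the 4 libraries for 32 of 41 members (78.0%), against 27.1% of all genes, and control 2 was the lowest for 28 (68.3%), against 26.2% of all genes. Setdb1 AKO 1 was the highest for 1 member and the lowest for 10. The median deviation of the members from their gene means was -0.12 in Setdb1 AKO 1 and 0.56 in Setdb1 AKO 2, against 0.18 in control 1 and -0.45 in control 2. The median log2 change of the members over the control mean was -0.04 for Setdb1 AKO 1 and 0.69 for Setdb1 AKO 2. Leaving out Setdb1 AKO 2 put the median at -0.03, and leaving out control 2 put it at 0.01. Without Setdb1 AKO 1 it was 0.69, and without control 1 it was 0.55. The size of the BAT median thus depended on which library of each group was used. Its sign turned only without Setdb1 AKO 2.

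**Figure D2:**
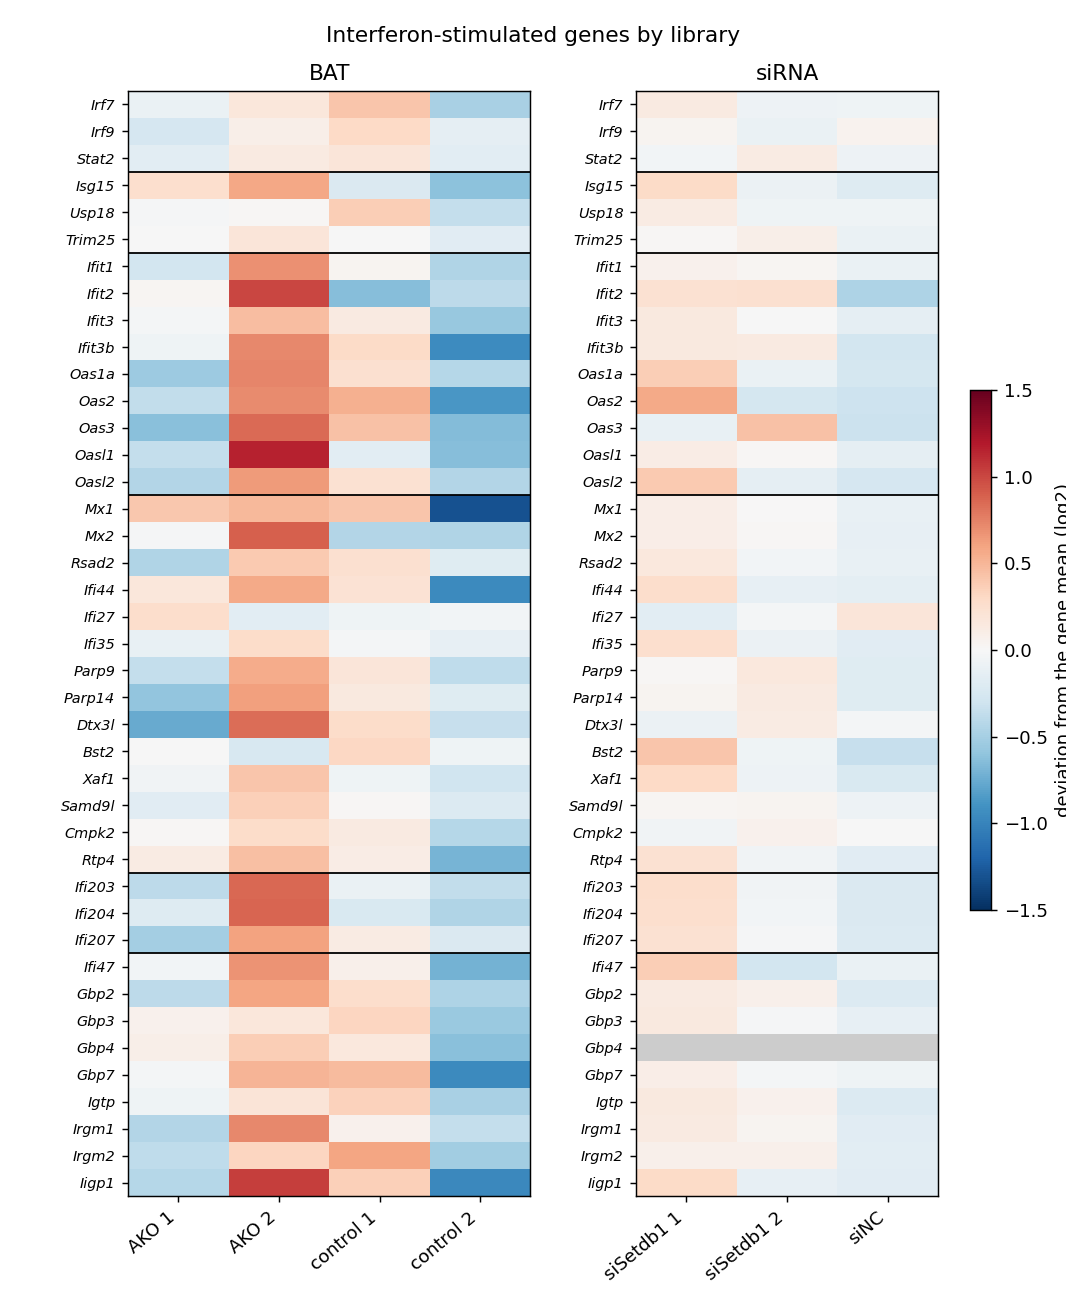
Deviation of each member from its mean over the libraries of an experiment, in log2 of the normalised count plus 1, for BAT (left) and siRNA (right), with the roles separated by lines and Gbp4 in grey where it was below the filter. Setdb1 AKO 2 is the darkest red and control 2 the darkest blue column of BAT, while siNC is the bluest column of siRNA.

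Marker lists of the cell types in BAT were summed for each library, over markers that passed the filter. The summed normalised counts of 12 macrophage markers were 4918 and 5671 in Setdb1 AKO, against 5593 and 3802 in control. Control 2 was the lowest library for 9 of these 12, and control 1 the highest for 7. Of the 12, Cd14 rose, to 1005 and 981 in Setdb1 AKO, against 494 and 529 in control (limma, adjusted p = 0.0314). The sums of 6 fibroblast markers were 4350 and 6111 in Setdb1 AKO, against 4117 and 3460 in control, and Setdb1 AKO 2 was the highest library for 6 of 6. Of these, Pi16 rose, to 229 and 562 in Setdb1 AKO, against 63.3 and 36.5 in control (log2 fold change 2.87, SE 0.45; limma, adjusted p = 0.0327). Dpp4 read 40.1 and 64.0 in Setdb1 AKO, against 15.6 and 10.1 in control (1.93, SE 0.45; limma, adjusted p = 0.0886). The sums of 8 T and NK cell markers were 192 and 147 in Setdb1 AKO and 352 and 164 in control, with control 1 the highest for 7 of 8. The 5 dendritic markers summed to 609 and 513 in Setdb1 AKO and 847 and 613 in control, with control 1 the highest for all 5, and Zbtb46, which endothelial cells also express, gave 547 and 462 in Setdb1 AKO and 740 and 571 in control. Of the B cell markers reported, Cd79a read 4.12 and 5.16 in Setdb1 AKO and 9.17 and 19.3 in control, Cd79b read 5.15 and 2.06 in Setdb1 AKO and 7.34 and 7.10 in control, and Igkc read 193 and 116 in Setdb1 AKO and 229 and 107 in control. Ighm, of the same list, rose, to 5384 and 9086 in Setdb1 AKO, against 56.0 and 46.7 in control (limma, adjusted p = 1.05e-04). Ighm also read 1311 counts in 4-OHT, against 67 in ETOH, in cultured adipocytes. Of the NK cell genes, Nkg7 read 9.26 and 17.5 in Setdb1 AKO, against 51.4 and 34.5 in control (log2 fold change -1.64, SE 0.48; limma, adjusted p = 0.146). Klrb1c read 2.06 and 0 in Setdb1 AKO and 7.34 and 4.06 in control. Ncr1 read 0 and 1.03 in Setdb1 AKO and 0.917 and 2.03 in control. Gzma, of the same list, had a fitted change above 0 (0.19, SE 0.50). It read 24.7 and 13.4 in Setdb1 AKO and 14.7 and 17.2 in control, which overlap. The 8 brown adipocyte markers summed to 370037 and 264174 in Setdb1 AKO and 321469 and 306213 in control. Of these 8, 4 had positive and 4 negative changes. Dio2 read 12534 and 6460 in Setdb1 AKO, against 18383 and 19932 in control (-1.09, SE 0.31; limma, adjusted p = 0.135). The 6 endothelial markers summed to 9256 and 8294 in Setdb1 AKO and 8510 and 9152 in control. The part of macrophages, fibroblasts or other cells in the values of the members was not tested.

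**Figure D3:**
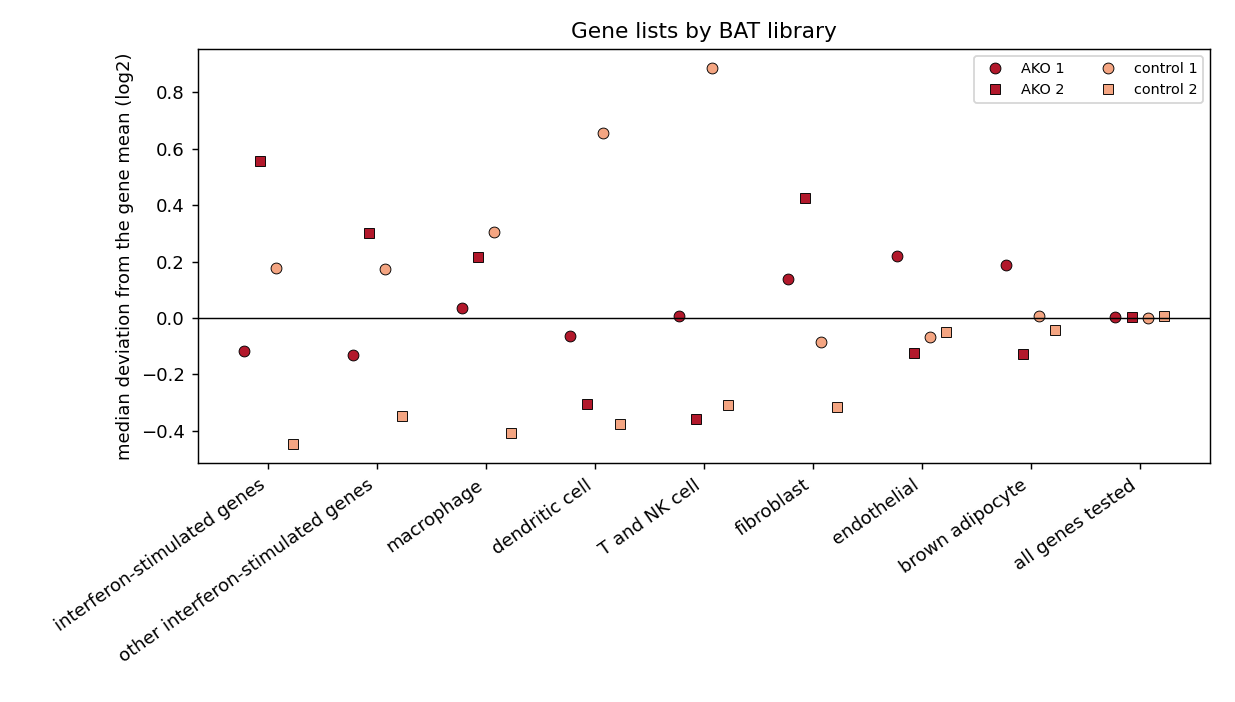
Median deviation from the gene mean (log2) of each gene list in the 4 BAT libraries, Setdb1 AKO in dark red and control in light red. For the members, Setdb1 AKO 2 lies at 0.56 and control 2 at -0.45; macrophage markers lie lowest in control 2 too, while T and NK and dendritic markers stand out in control 1.

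Genes of the same pathway outside the 41 were also measured in BAT. Of 48 other interferon-stimulated genes measured, 0 passed (limma), 3 had an unadjusted p below 0.05, 35 had positive changes and the median was 0.22. For this and the lists that follow, the shares among all genes were 1.68% passed, 17.7% at an unadjusted p below 0.05 and 50.6% positive. Setdb1 AKO 2 was the highest library for 26 of the 48, against 27.1% of all genes. Control 2 was the lowest for 32 of the 48, against 26.2% of all genes. Nmi read 164 and 185 in Setdb1 AKO, against 103 and 63.9 in control (1.09, SE 0.29; limma, adjusted p = 0.120). The chemokine Cxcl10, which draws T cells, read 56.6 and 162 in Setdb1 AKO and 45.0 and 55.8 in control. Of 8 receptors and kinases 0 passed (limma), 2 had an unadjusted p below 0.05, and the smallest adjusted p was that of Il10rb, a receptor chain of interferon lambda and interleukin 10, which read 374 and 380 in Setdb1 AKO, against 216 and 201 in control (0.85, SE 0.18; adjusted p = 0.0702). Of 12 STAT, IRF and feedback regulators 0 passed (limma), 2 had an unadjusted p below 0.05, 8 had positive changes and the median was 0.06.

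The siRNA comparison asked the same of cultured primary brown adipocytes. With at least 10 normalised counts in 1 library, 40 members were tested, and Gbp4, with 8.11 and 2.04 in siSetdb1 and 2.96 in siNC, was not. Of the 40, 0 passed (limma, adjusted over 15224 genes), against 6 genes in all (0.0394%). At an unadjusted p below 0.05 there were 6 members higher and 1 lower, against 5.06% of all genes in either direction and 3.02% higher. The edgeR quasi-likelihood test passed 0, with 13 at an unadjusted p below 0.05, and DESeq2 passed 0, with 2. The lone siNC library was assumed to vary like the siSetdb1 libraries.

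Fitted changes were above 0 for 38 of the 40 members, against 49.3% of all genes, with a median of 0.24, against -0.0034 for all genes, and a range of -0.28 to 0.69. Both siSetdb1 libraries lay above siNC in 34 members, against 34.1% of all genes, and both below in 2, against 33.8%. The siNC library is common to all these comparisons, and its own spread could not be measured. The members' median was 0.27 in siSetdb1 1 and 0.13 in siSetdb1 2. The siSetdb1 1 library was the highest for 29 members and siSetdb1 2 for 9, against 32.5% and 33.7% of all genes. Of the 40, Ifit2 alone lay more than 1.5-fold higher, against 5.16% of all genes, and 0 lay more than 1.5-fold lower, against 5.54%.

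Ifit2 had the smallest adjusted p of the members in this experiment, with 237 and 239 normalised counts in siSetdb1, against 147 in siNC (log2 fold change 0.69, SE 0.20; limma, adjusted p = 0.734). Both libraries lay well above siNC and close to each other. Bst2 read 9602 and 6853 in siSetdb1, against 5636 in siNC (0.53, SE 0.16; limma, adjusted p = 0.837), whereas its fitted change in BAT was negative. Ifit3b read 467 and 464 in siSetdb1, against 350 in siNC (0.41, SE 0.15).

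None of the 8 tested GTPases passed (smallest adjusted p 0.940, limma). Of the 8, 7 lay above siNC in both siSetdb1 libraries, against 34.1% of all genes. Ifi47, with 246 and 157 in siSetdb1 and 177 in siNC, overlapped. Gbp2 read 1185 and 1135 in siSetdb1, against 933 in siNC (0.31, SE 0.12). Igtp read 1019 and 964 in siSetdb1, against 802 in siNC (0.31, SE 0.13). Irgm1 read 1293 and 1219 in siSetdb1, against 1047 in siNC (0.26, SE 0.12). Irgm2, another member of that family, read 1355 and 1351 in siSetdb1, against 1146 in siNC (0.24, SE 0.12), and the median over the 8 tested GTPases was 0.24. Parp14, a mono-ADP-ribosyltransferase, read 659 and 700 in siSetdb1, against 564 in siNC (0.27, SE 0.14). Gbp2, Igtp, Irgm1, Irgm2 and Parp14, like Ifit2, Bst2 and Ifit3b above, were chosen for changes of the same sign in both siSetdb1 libraries. That both libraries lay on the same side of siNC in these genes therefore follows from the choice.

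The ISG15 pathway and signalling members had fitted changes between -0.08 and 0.30. Isg15 read 2854 and 2187 in siSetdb1, against 2031 in siNC (0.30, SE 0.15). Irf7 read 6657 and 5767 in siSetdb1 and 5799 in siNC, and Usp18 read 1233 and 1083 in siSetdb1 and 1081 in siNC. Irf9 read 1102 and 999 in siSetdb1 and 1108 in siNC. Stat2 read 1368 and 1534 in siSetdb1 and 1332 in siNC, and Trim25 read 1735 and 1816 in siSetdb1 and 1593 in siNC. For Irf7 siNC lay between the siSetdb1 libraries. Ifi27 was 1 of the 2 members with a negative change, with 10665 and 11722 in siSetdb1, against 13566 in siNC (-0.28, SE 0.11; limma, adjusted p = 0.940).

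Of 48 other interferon-stimulated genes 0 passed after siRNA (limma), 9 had an unadjusted p below 0.05, 34 were positive and the median was 0.15. Among all genes, 5.06% had an unadjusted p below 0.05 and 49.3% were positive. Zbp1, a sensor of Z-form nucleic acids, read 1100 and 761 in siSetdb1, against 543 in siNC (0.75, SE 0.19; limma, adjusted p = 0.565). Macrophage markers had lower values, with sums of 499 and 474 in siSetdb1, against 955 in siNC, and 9 of 10 negative. Lyz2 read 244 and 166 in siSetdb1 and 527 in siNC. Their part in the members' values was not tested.

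**Figure D4:**
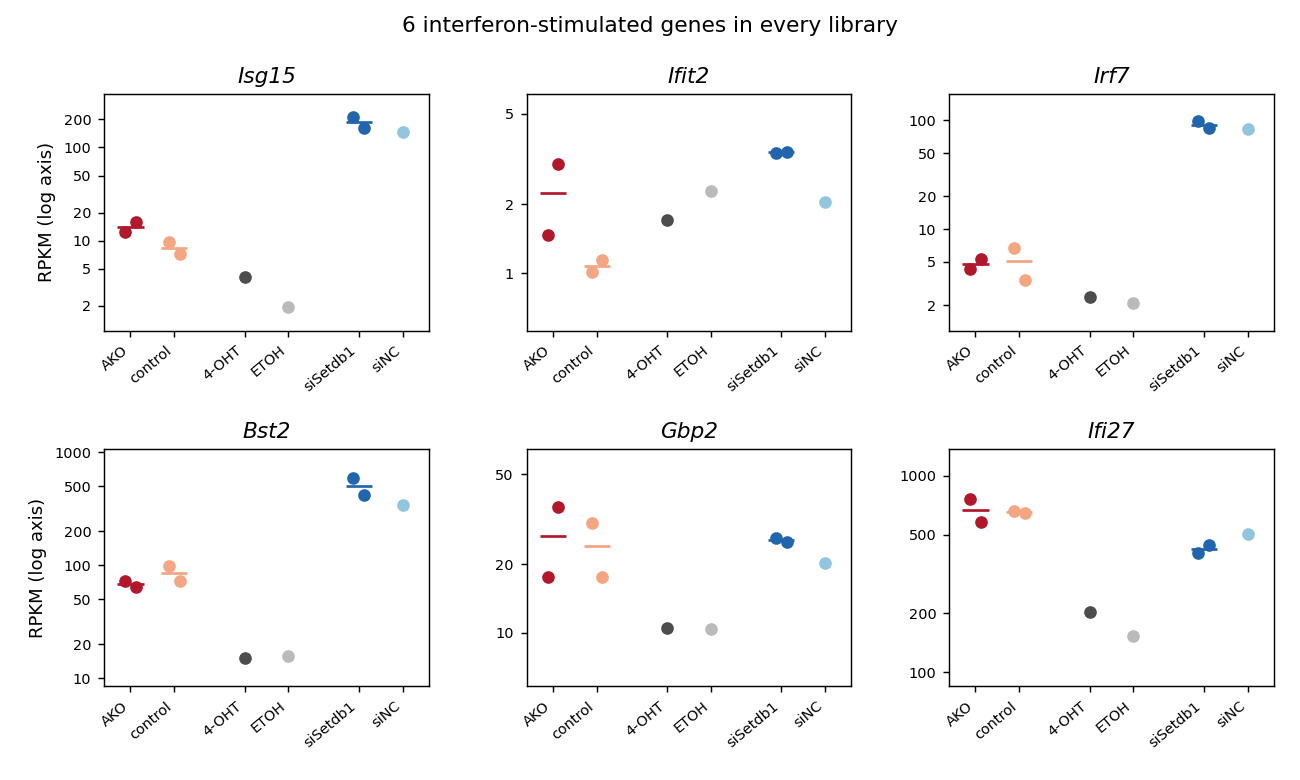
RPKM on a log axis of 6 members in every library, with the mean as a bar where a group has 2 libraries, and Setdb1 AKO, 4-OHT and siSetdb1 left of their controls. Isg15 and Ifit2 lie higher in Setdb1 AKO and siSetdb1 than in control and siNC, Ifit2 lies lower in 4-OHT than in ETOH, and Ifi27 is abundant everywhere.

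With 1 library per group, the 4-OHT experiment has no replicate check and no test of the conditions. Ratios are on the log2 scale of library-scaled counts (TMM, prior count 2), and intervals are 95% binomial intervals that cover counting error only. Of 41 members 32 had at least 50 counts in 1 library. Of these, 14 ratios were above 0 and 18 below, against 48.3% below 0 among all 13969 genes. The median was -0.05, against 0.01 for all genes, and the range was -0.69 to 1.10. Past 1.5-fold there were 3 members (1 higher, 2 lower), against 10.3% of all genes, 4.21% higher and 6.12% lower. With total count scaling the members' median was -0.12 and that of all genes was -0.05.

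Isg15 had 93 counts in 4-OHT and 44 in ETOH, a log2 ratio of 1.10 (interval 0.60 to 1.68). Of the 32 it is the member past 1.5-fold higher, and its values were higher in Setdb1 AKO and siSetdb1 as well. Ifit3 had 40 counts in 4-OHT, against 68 in ETOH (-0.69, interval -1.31 to -0.13). Oas1a had 56 in 4-OHT, against 94 in ETOH (-0.68, interval -1.20 to -0.20). Both lie past 1.5-fold lower, the opposite direction to that of both siSetdb1 libraries.

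Ifit2, the leading member of both other experiments, had 202 counts in 4-OHT and 268 in ETOH (-0.35, interval -0.63 to -0.09). All 3 HIN200 members were lower in 4-OHT, with a median of -0.41. Ifi203 had 169 counts in 4-OHT and 249 in ETOH (-0.50), and Ifi207 had 643 in 4-OHT and 884 in ETOH (-0.41). Parp14 had 645 in 4-OHT and 868 in ETOH (-0.37). The most abundant member, Ifi27, had 9006 in 4-OHT and 6683 in ETOH (0.48, interval 0.44 to 0.53). Irf7 had 272 in 4-OHT and 237 in ETOH (0.25), Irf9 539 in 4-OHT and 612 in ETOH (-0.13), and Stat2 503 in 4-OHT and 495 in ETOH (0.08). Usp18 had 59 in 4-OHT and 75 in ETOH (-0.28), and Trim25 1777 in 4-OHT and 1736 in ETOH (0.09). Counting intervals lay below 0 for 9 of the 32 members, against 24.6% of all genes, and above 0 for 4, against 27.2%. In 10 of the 32 such a ratio pointed the opposite way from every Setdb1 AKO or every siSetdb1 library against its control, against 22.9% of all genes. That share is not a like baseline, since most members lay above the lone siNC in both siSetdb1 libraries.

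Other lists of the pathway in 4-OHT gave 10 of 33 other interferon-stimulated genes above 0, with a median of -0.17. Among all genes, 48.3% had a ratio below 0 and the median was 0.01. Cxcl10 had 76 counts in 4-OHT, against 154 in ETOH. Macrophage markers were lower in 11 of 12, and their sum was 62053 library-scaled counts in 4-OHT, against 106297 in ETOH, with Lyz2 at 43473 counts in 4-OHT and 80947 in ETOH. Their part in the members' values was not tested.

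**Figure D5:**
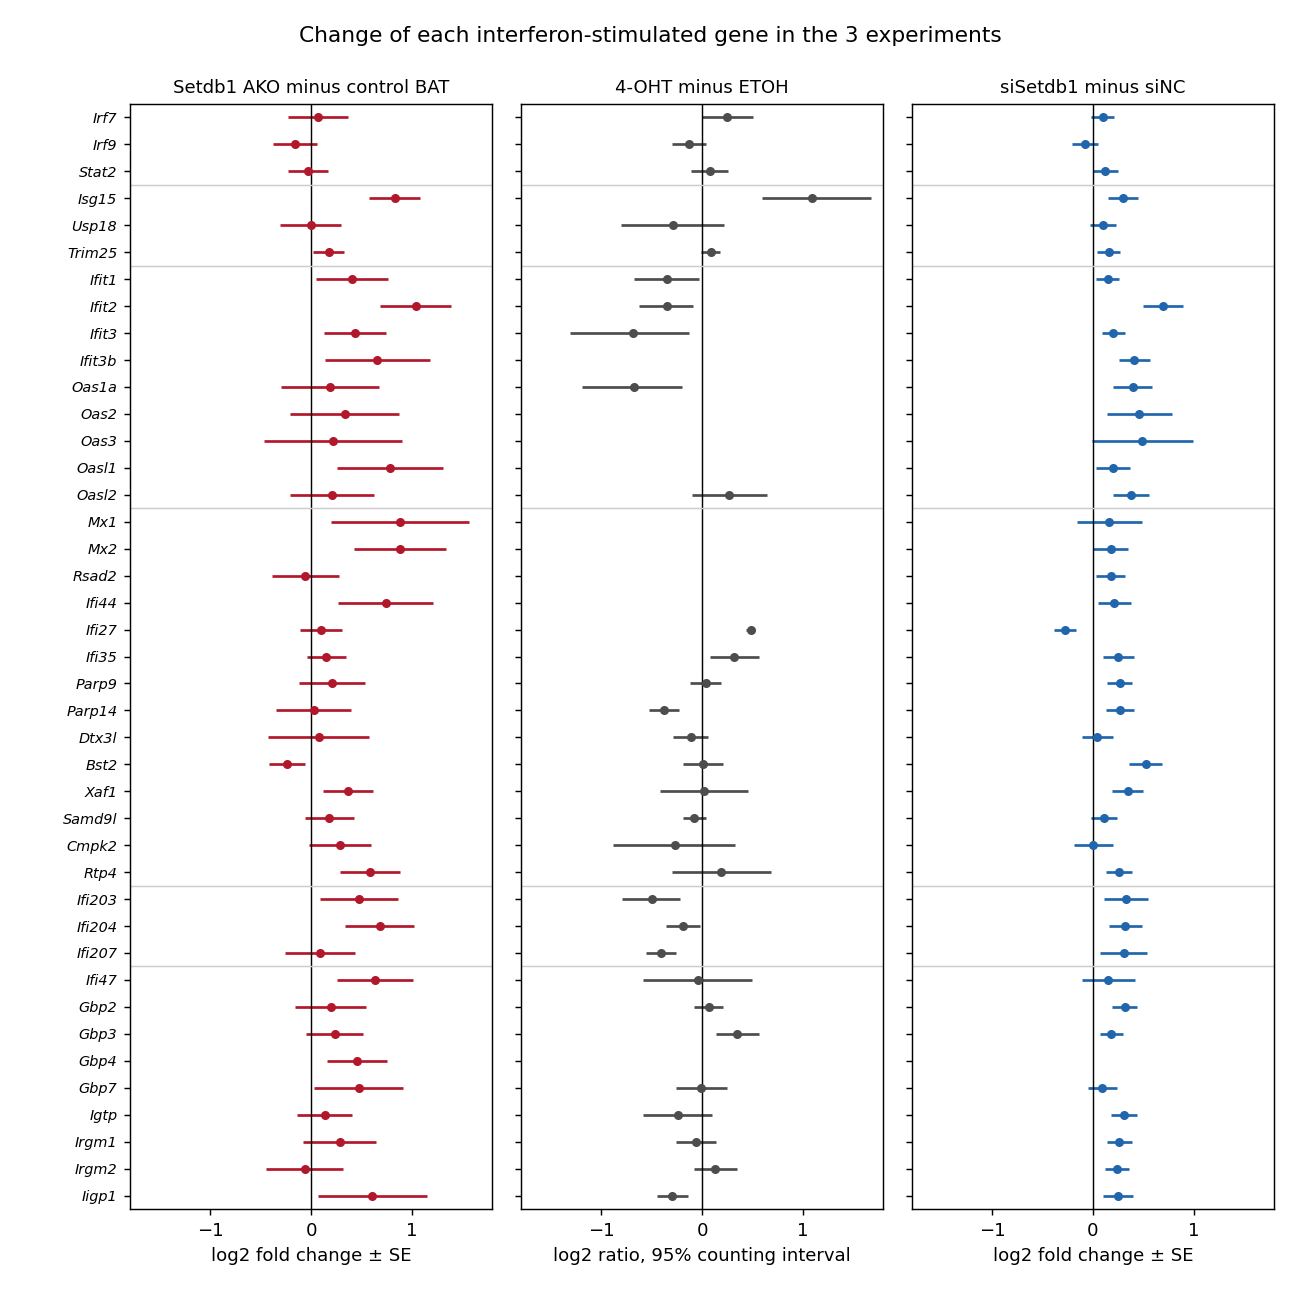
Log2 change of each member in Setdb1 AKO against control BAT (left) and siSetdb1 against siNC (right), points with SE, and in 4-OHT against ETOH (middle), points with the 95% counting interval, for members that passed the filter. Points lie mostly right of 0 on the left and right, with medians of 0.23 and 0.24, and on both sides of 0 in the middle, with a median of -0.05.

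The authors' deposited tables give 0 members with an adjusted p below 0.05 in any comparison, against 578 of 22721 genes in BAT (2.54%) and 59 of 26645 in 4-OHT (0.221%). In the siRNA tables it is 2 of 20328 genes for siSetdb1 1 and 6 of 20374 for siSetdb1 2, with none of the members.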

How the data were processed

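RNA-seq libraries of BAT and primary brown adipocytes were made with an NEBNext Ultra II kit, per the labels. Tools listed in the submitters' processing notes, without a role or order, are STAR 2.7.10a, Trimmomatic 0.39, DESeq2 1.36.0 and featureCounts 2.0.3, and the build is GRCm38. The strand setting and multi-mapping rule are not given in the sources used here. The deposited BAT and siRNA tables hold a signal per gene, which is a read count scaled by the authors by 1 factor per library. The deposited 4-OHT table holds raw counts, the same signal and an FPKM computed by the authors. Each deposited table also gives the authors' log2 fold change, p-value and adjusted p-value, and the length of each gene, which was used for RPKM, as the file headers name them. The FPKM and the authors' fold changes were not used.

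Division of each signal column by its smallest step gave back the reads, whole to within 0.05 in 100% of values. Both siRNA tables hold siNC with equal reads in 19381 shared genes and were joined through it. Tests on BAT and siRNA used limma 3.58.1 (R 4.3.3, lmFit and eBayes with a trend) on log2(normalised count + 1), which understates changes of low genes. The filter was 10 normalised counts or more, in 2 or more BAT libraries or in 1 siRNA library, and Benjamini-Hochberg adjustment ran over all genes tested, with 0.05 as threshold. Because 1 library per group was given, the 4-OHT experiment has ratios only, with TMM scaling by edgeR 4.0.16 and a prior count of 2. The alternatives were edgeR and DESeq2 1.42.0 on recovered reads, TMM, other filters and pseudocounts, a replicate block and leaving out each library. The pipeline was checked on simulated data. Depth ranged from 15979479 to 30176359 reads on genes, and gene overlap with paralogs was measured by shared 100-base stretches of the annotated transcripts.

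The members and lists were chosen with earlier results of these data known. Values in every library are given for the signalling and ISG15 pathway members, the 8 members with the smallest p in BAT, the 8 with the largest smaller change over both siSetdb1 libraries, and the 8 with the largest ratio in 4-OHT. Further genes and members were chosen after their values were seen.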

Additional observations from a re-analysis of the deposited data

Results flagged for a closer look

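In 10 members the 4-OHT ratio had a counting interval that leaves out 0 and pointed the opposite way from every Setdb1 AKO library or every siSetdb1 library against its control, out of 32 with a ratio. The same held for 3204 of all 13969 genes (22.9%). Both siSetdb1 libraries lay above the lone siNC in 34 of 40 members, against 34.1% of all genes. A member with an interval below 0 was thus likely to be flagged, and the share of all genes is not a like baseline. Isg15, Ifi35 and Gbp3, with intervals above 0, were higher in both siSetdb1 libraries too. The difference between the experiments was not tested, since 4-OHT has 1 library per group. Lower in 4-OHT than in ETOH, by log2 ratio, and higher in both siSetdb1 libraries than in siNC were Ifit1 (-0.35), Ifit3 (-0.69), Oas1a (-0.68), Ifi203 (-0.50), Ifi207 (-0.41), Iigp1 (-0.29) and Parp14 (-0.37). Ifit2 (-0.35) and Ifi204 (-0.19) were lower in 4-OHT than in ETOH and higher in both siSetdb1 libraries than in siNC and in both Setdb1 AKO libraries than in control BAT. Ifi27 (0.48) was higher in 4-OHT than in ETOH and lower in both siSetdb1 libraries than in siNC.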

How the results depend on the processing

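No member was called in BAT or siRNA under any setting run. The siRNA median was 0.13 without siSetdb1 1 and 0.27 without siSetdb1 2. The BAT median ran from -0.03 to 0.69 when each library was left out in turn, and its sign turned only without Setdb1 AKO 2 (-0.03). In BAT, leaving out a library gave 0 to 12 members at an unadjusted p below 0.05, and the smallest adjusted p ran from 0.0705 to 0.534 (limma). The number of members past 1.5-fold in 4-OHT was 3 at 50 counts, 6 at 10 counts and 0 at 100 counts, where fewer genes of low depth are kept. Among 341 values of named members 10 changed sign. In BAT, leaving out a library moved Irf7 between -0.37 and 0.52, Irf9 between -0.38 and 0.060, Stat2 between -0.20 and 0.14 and Usp18 between -0.36 and 0.36, and Usp18 was 0.0069 with TMM. After siRNA, Irf7 ran from -0.0082 to 0.20. The labels name no pairing of the BAT samples. The correlation of same-numbered deviations was -0.02, which cannot settle whether they were paired. With the number as a replicate block 0 members were called among 299 genes, against 243 without it, with a median of 0.23. In siRNA no paired analysis was possible because siNC has 1 library, and leaving out a siSetdb1 library leaves no residual degrees of freedom for a test. Across all genes in BAT, DESeq2 called 651, and no filter on low values called 11. In siRNA the edgeR test called 37 genes, the filter at 50 counts 29, TMM 19, DESeq2 11, pseudocounts of 0.5 and 5 called 3 each, and no filter 0, against 6. With low counts in 4-OHT, depth limits Mx1, Gbp4 and other members under 50 counts. Without control 1 or control 2, BAT called 24 or 22 genes, and without Setdb1 AKO 1 or 2 it called 157 or 92.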
